A study of Mus musculus with 5 samples.

Results

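MicroRNA genes of blood were examined for H3K27ac, a histone mark (acetyl groups on lysine 27 of H3) found at promoters and enhancers in use. The set held 10 listed genes (Mirlet7b, Mirlet7c-2, Mir142, Mir155, Mir181a-1, Mir17, Mir150, Mir223, Mir146 and Mir10a), out of 1228 annotated microRNA genes. They lie in 9 loci, because Mirlet7b and Mirlet7c-2 are neighbours in 1 host transcript. A peak belonged to a locus when it overlapped the microRNA gene, its named host or cluster partners, or lay within 50 kb of them. This took 30 of the 22948 peaks of the list. The genes were chosen by name, with the positions, widths and signal values of the peaks near them known, so those values describe the set and support nothing further.

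The chromatin came from mouse bone marrow cells with Mll3 and Mll4 deleted, sorted as the CD45.2+ fraction that lacked lineage markers and carried both Sca1 and Kit, and labelled HSC/MPP (haematopoietic stem cells and multipotent progenitors). H3K27ac was profiled by ChIPmentation, in which the Tn5 transposase adds sequencing adapters to the antibody-bound chromatin. There were 4 H3K27ac libraries and 1 input library, all of this genotype, and the data are 1 peak list made from them together. Animal age, the Cre driver and the number of animals are not given in the sources used here. No control genotype was used here, so every value describes Mll3/4-deleted cells and none shows a gain or a loss. The list holds no value of a single library, so no spread between libraries and no test between loci could be had. Total read counts are likewise not given, and the depth is unknown.

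A microRNA is cut from a hairpin within a longer primary transcript, often a non-coding host RNA, and its seed near the 5′ end pairs with target messenger RNAs. Hairpins that share a seed are treated as a family, and copies of a family can lie in distant loci with separate regulation. Several of the listed genes are textbook regulators of blood cells. miR-142 is made throughout the blood system, miR-223 is a microRNA of myeloid cells, and miR-150 restrains the progenitor factor Myb in lymphocytes. miR-155 and miR-146a act in immune activation, the latter as a brake on NF-kB signalling. miR-181a acts in lymphocyte development, the miR-17 cluster supports survival of B-cell progenitors, and let-7 represses growth and fetal-stage genes.

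All 10 of the 10 listed genes had an entry in the RefSeq sequence table (GRCm38.p6). The mature forms on which the comparison of loci turns are shown 5′ to 3′, with the seed (bases 2 to 8) in capitals. The let-7 pair shares its seed, as do the miR-181 forms and, within the miR-17 cluster, miR-17-5p and miR-20a-5p.
mmu-let-7b-5p: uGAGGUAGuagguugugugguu
mmu-let-7c-5p: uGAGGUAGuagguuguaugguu
mmu-miR-181a-5p: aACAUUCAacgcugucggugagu
mmu-miR-181b-5p: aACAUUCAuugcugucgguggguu
mmu-miR-17-5p: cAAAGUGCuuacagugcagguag
mmu-miR-20a-5p: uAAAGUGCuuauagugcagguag
mmu-miR-146a-5p: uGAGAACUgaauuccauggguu
mmu-miR-10a-5p: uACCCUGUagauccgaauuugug
mmu-miR-223-3p: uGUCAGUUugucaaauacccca

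Positions in a mature form are counted from 1 at its 5′ end. let-7b-5p and let-7c-5p differ at 1 of 22 positions (G17A, let-7b first), outside the seed. The table lists 13 genes with the let-7 seed, 6 with the miR-181 seed, 7 with the seed of miR-17-5p and 2 each with the seeds of miR-146a-5p and miR-10a-5p. Mirlet7a-2, a let-7 copy named below, is not among these 13. This does not show that it lacks the seed, and the 13 do not hold every let-7 copy. The miR-223-3p seed belonged to 1 gene.

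Mir142 and Mir155 were the listed genes whose hairpin lay inside a peak, so their hairpins are shown whole, with the mature arms in capitals. Both are on the plus strand, Mir142 on chromosome 11 from 87756864 to 87756927 and Mir155 on chromosome 16 from 84714140 to 84714204.
Mir142: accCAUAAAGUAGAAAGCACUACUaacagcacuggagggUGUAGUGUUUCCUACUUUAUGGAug
Mir155: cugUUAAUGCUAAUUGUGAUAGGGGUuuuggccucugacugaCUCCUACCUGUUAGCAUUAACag

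A peak lay within 50 kb of 8 of the 10 listed genes and of 7 of the 9 loci. The background for this count was high, since 64.6% of the 1228 microRNA genes had such a peak, and 43.4% of the 396 that lie outside protein-coding genes. A peak over the gene itself was found for 2 of the 10, against 5.7% of all microRNA genes. One of the 390 largest clusters of distal peaks, defined with the let-7 pair, lay within 50 kb of 3 of the 10, against 4.56% of all. These values entered the choice of the genes, so nothing is read from the differences. Mir223 and Mir10a had no peak in the window.

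**Figure D1:**
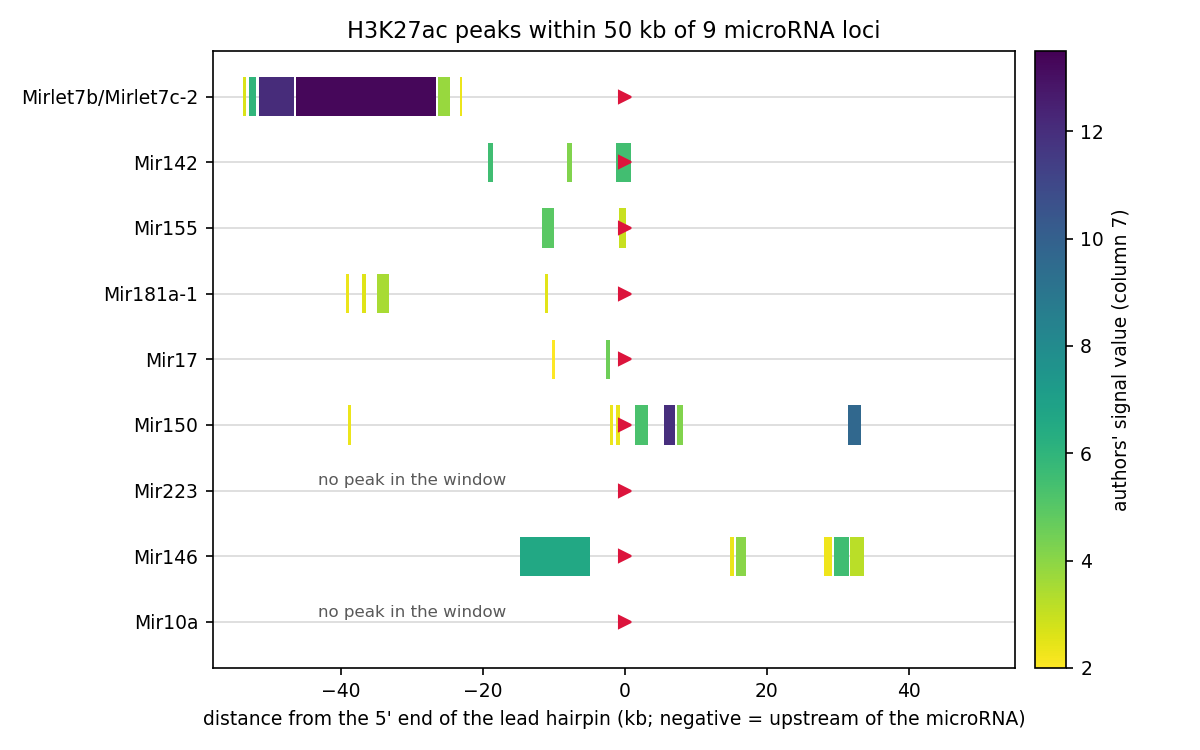
Peaks (bars, width to scale) at the 9 loci, by distance in kb from the 5′ end of the lead hairpin (red arrowhead) in the direction of transcription, coloured by the authors' signal value. The widest bar, 19808 bp, is at the let-7 pair and the next, 9923 bp, at Mir146, and Mir223 and Mir10a have none.

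The loci differed widely in signal value (column 7 of the list, the authors' enrichment of the pileup over background) and in width. The strongest peak of each locus had a signal value of 13.3 at the let-7 pair, 11.9 at Mir150, 6.60 at Mir146, 5.54 at Mir142, 4.93 at Mir155, 4.56 at Mir17 and 3.49 at Mir181a-1. Without values of single libraries, neighbours in this order could not be told apart. Over the 30 peaks the median signal value was 3.90 and the median width 1032.5 bp, beside 3.27 and 854 bp for the whole list.

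**Figure D2:**
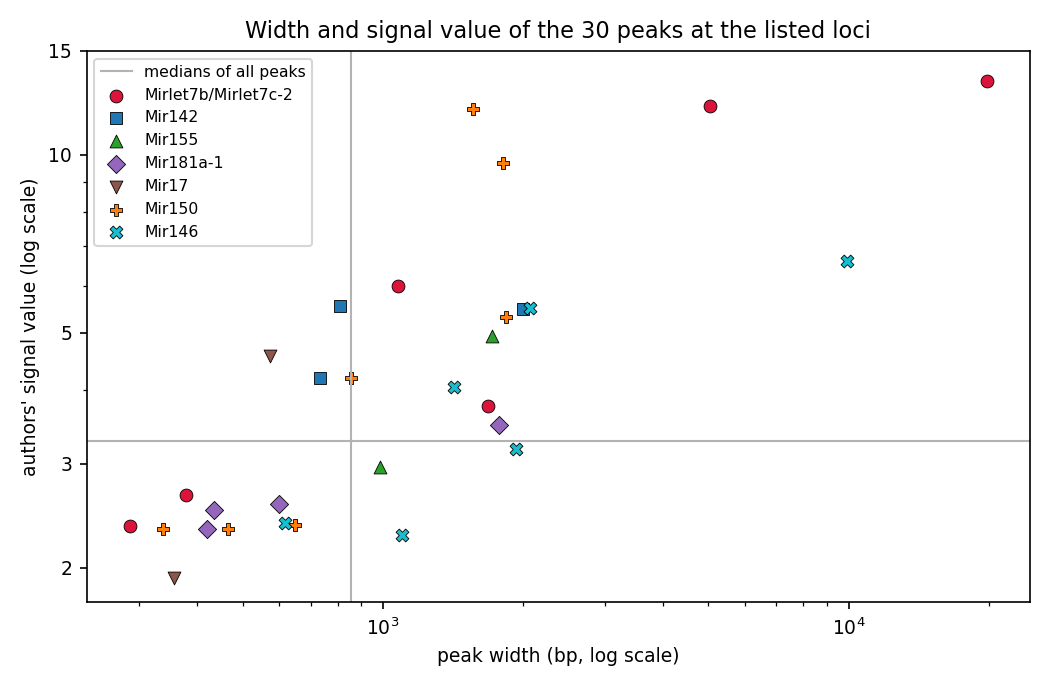
Width in bp (log scale) and the authors' signal value (log scale) of the 30 peaks, 1 symbol per locus, with grey lines at the medians of all peaks (854 bp and 3.27). The 2 widest let-7 peaks and the widest Mir146 peak stand at the right edge, while the 2 strongest Mir150 peaks, at 1560 and 1811 bp, are far narrower.

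The broadest acetylated region was upstream of the let-7 pair. Mirlet7c-2 (chromosome 15 from 85706603 to 85706697) and Mirlet7b (85707319 to 85707403) lie on the plus strand in Lncppara, a non-coding host RNA also named Mirlet7bhg. A peak from 85661004 to 85680811 was 19808 bp wide, rank 3 by width among all 22948, with a signal value of 13.3 (rank 100) and a −log10 q of 55.4. Its summit lay 39.6 kb upstream of Mirlet7b. The next peak outward, from 85655786 to 85660824, was 5039 bp wide with a signal value of 12.1 (rank 188) and was separated from the first by 179 bp. Both are thus far above the median peak in width and in signal value.

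The other 4 peaks in the let-7 window were smaller. On the far side lay peaks with signal values of 5.998 (1078 bp wide) and 2.66 (378 bp). On the side of the microRNAs lay a peak of 1682 bp with a signal value of 3.76, and then one of 286 bp with 2.35. The peaks with 2.66 and 2.35 had q-values above 0.05 (−log10 q of 1.22 and 0.905). The weak edge peaks therefore carry little of the region.

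Joining distal peaks (summit more than 1 kb from either end of a protein-coding gene) within 12 kb gave 8972 clusters, which were put in order of summed area (signal value times length). The 390 largest, where the curve of ranked areas turns steep, were taken as the top. The let-7 cluster ran from 85634810 to 85684414, over 49.6 kb and 8 peaks, and ranked 4 among all of them. With a join distance of 5 kb it spanned 30804 bp, and by summed length in place of area it had rank 14. Peaks filled 64.5% of its length. The 2 widest peaks held 90.1% of that area. Of its 8 peaks, 2 lay beyond the 50 kb window, with signal values of 6.06 and 4.83. Just inside the limit, at 49.8 kb from the host, was the peak with 2.66, and just outside, at 56.0 kb, the one with 6.06.

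No peak overlapped either let-7 hairpin or Lncppara. The edge of the cluster was 22.2 kb from Mirlet7c-2, 22.9 kb from Mirlet7b and 19.4 kb from Lncppara. The only annotated gene under the cluster was the non-coding RNA D130051D11Rik, which overlapped 1 of its peaks at the far end. The nearest protein-coding genes were Ppara, a nuclear receptor of fatty acid metabolism downstream of the pair, and Wnt7b, a Wnt ligand on the other side. The summit of the widest peak was 67.2 kb from the nearest end of Ppara, and no peak overlapped either gene. The list does not show which gene, if any, the region acts on.

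**Figure D3:**
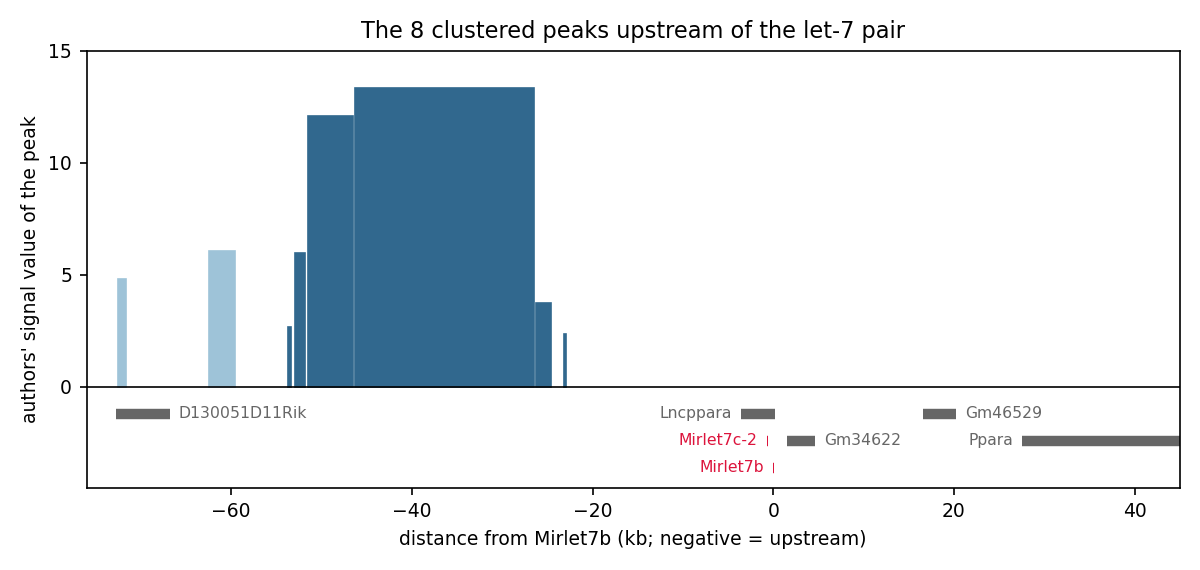
The 8 peaks of the let-7 cluster by distance in kb from Mirlet7b, each drawn to its width with its single signal value as height (dark, within the window; light, beyond it), over the annotated genes (bars under the axis; Ppara runs on past the right edge). The acetylated block ends 22.9 kb before Mirlet7b, and no peak lies over the pair or Ppara.

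Mir146, the gene of miR-146a, had the other broad peak of the set. The gene is on the minus strand of chromosome 11 from 43374397 to 43374461, so higher coordinates are upstream. A single peak from 43379316 to 43389238 was 9923 bp wide, rank 28 by width in the list, with a signal value of 6.60 (rank 2374) and a −log10 q of 20.8. It began 4.86 kb from the hairpin, and its summit lay 9.50 kb upstream. As a cluster of 1 peak it had rank 146, among the 390 at the top. With a join distance of 20 kb in place of 12 kb it merged with the downstream peaks described next into a cluster of 6 peaks over 48421 bp, with rank 88. Its width, more than its signal value, sets it apart from the median peak.

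Downstream of Mir146 lay 5 more peaks in 2 groups. The nearer group had summits 15.1 and 16.1 kb away with signal values of 2.38 and 4.04. The farther group, at 28.8, 30.1 and 32.0 kb, had 2.27, 5.51 and 3.18. Together these 5 formed a cluster of 18.9 kb that had rank 615. The 2 peaks with 2.38 and 2.27 had q-values above 0.05. The nearest protein-coding gene, Pttg1 (securin), had its peak 52.2 kb from the hairpin, just outside the window, with a signal value of 3.36.

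At Mir142 a peak covered the hairpin. It ran from 87755696 to 87757691 on chromosome 11, was 1996 bp wide and had a signal value of 5.48, with a −log10 q of 11.3. Its summit lay 0.437 kb upstream of the hairpin and 1767 bp from the end of Tspoap1, the next gene downstream. A second peak, with a signal value of 4.19, had its summit 7.61 kb upstream. The third, with 5.54, was 212 bp from an end of Supt4a, a transcription elongation factor. The strongest value in the window was thus not at the microRNA, although the peak over the hairpin was nearly as strong. Of the 5 protein-coding genes in the window, the myeloid gene Mpo (myeloperoxidase), Lpo (lactoperoxidase, an enzyme of secretory glands) and Rnf43 had no peak at an end.

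Mir155 had 2 peaks. The one over the hairpin, on chromosome 16 from 84713319 to 84714305, was 987 bp wide with a signal value of 2.97, below the median of the list, and a −log10 q of 2.16. It lay within the host RNA Mir155hg, which runs from 84713023 to 84715245. The stronger peak was upstream of the host, from 84702487 to 84704203, with a signal value of 4.93, a −log10 q of 9.06 and its summit 10.4 kb from the hairpin. Neither was within 1 kb of a protein-coding gene end, and the next peak outward was 91.2 kb from the host.

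The Mir17 cluster encodes 6 hairpins (Mir17, Mir18, Mir19a, Mir20a, Mir19b-1 and Mir92-1) beside its host RNA Mir17hg, whose RefSeq entry here starts within the cluster. A peak of 573 bp, from 115041013 to 115041585 on chromosome 14, ended 2.09 kb before the Mir17 hairpin. Its signal value was 4.56 and its −log10 q 7.63. A second peak 9.82 kb upstream had a signal value of 1.92 and a −log10 q of 0.185, a q-value above 0.05, with rank 22819 by signal value. No peak overlapped any of the 6 hairpins or Mir17hg. Next to the let-7 region this locus carried little acetylated sequence, 929 bp in all.

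Mir181a-1 and its partner Mir181b-1 had the lowest strongest value of the 7 loci within 50 kb, 3.49. Within 100 kb the value was 5.69, above those of Mir142 (5.54), Mir155 (5.60) and Mir17 (4.80), so this place in the order holds for the 50 kb window. All 4 peaks lay upstream, with summits at 11.2, 33.7, 36.8 and 39.1 kb and signal values of 2.51, 3.49, 2.57 and 2.32. Only the peak with 3.49, which was 1778 bp wide, had a q-value of at most 0.05. All 4 lay within the span of the non-coding RNA Gm4258, which the gene table does not name as a host. No protein-coding gene lay in the window. The nearest one to these summits was Ptprc, the gene of CD45, with an end 108 kb to 135 kb away.

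Mir150 lies in the most gene-rich of the windows with peaks, and its strong peaks belonged to gene ends. The hairpin is on chromosome 7 from 45121757 to 45121821, with 9 protein-coding genes in the window. Of the 7 peaks, 5 had a summit within 1 kb of a protein-coding gene end. Of the 30 peaks at the listed loci 6 did, and of all peaks 32.5%. The strongest, with a signal value of 11.9 (rank 207), was 346 bp from an end of Rpl13a, which encodes a ribosomal protein. The peak with 9.67 was 554 bp from an end of the dehydrogenase gene Aldh16a1 and also overlapped Pih1d1. A second peak near the end of Rpl13a had 4.19, and one at Rcn3 had 2.32 with a q-value above 0.05. Flt3l, the gene of the Flt3 ligand, had none at an end.

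The distal peaks of the Mir150 window were weak. They were 466 and 648 bp wide, with signal values of 2.32 and 2.36, and their summits lay 1.63 and 1.13 kb upstream of the hairpin. The first had a q-value above 0.05 and the second one just under it (−log10 q of 1.35). No peak overlapped the hairpin, and the nearest edge was 638 bp away. The rank of Mir150 in the order of strongest signal values therefore rests on its neighbours. With distal peaks alone its strongest value was 2.36, the lowest of the 7 loci.

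Mir223 and Mir10a had no peak. The Mir223 hairpin is on the X chromosome from 96242817 to 96242926, and the nearest peak was 112 kb away, with a signal value of 2.97. On X, 28.3% of the 92 microRNA genes had a peak within 50 kb, against 67.5% of the 1136 on autosomes, and the part of this difference in the result at Mir223 was not tested. Mir10a lies within the annotated span of Hoxb3 on chromosome 11 from 96317165 to 96317274, among 9 Hoxb genes. None of these 9 had a peak at an end, and the nearest peak was 242 kb from Mir10a, with a signal value of 4.07. The calling of the authors left no peak at these loci, which does not show that acetylation was absent.

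The peaks of 5 loci all had their summits upstream of the lead hairpin: the let-7 pair, Mir142, Mir155, Mir181a-1 and Mir17. Of all 30 peaks, 21 (70.0%) were upstream, with hosts and cluster partners counted in the window. From the hairpin alone there were 28 peaks. The let-7 pair then had 4 in place of 6, and all 6 lay upstream. At the 1056 other microRNA genes with a known strand, 53.6% of peaks within 50 kb were upstream. Neighbouring genes in that background share peaks, and the listed loci were chosen with results known, so this is a description without a test.

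Measured as the length covered by peaks within 50 kb of the hairpin, the listed genes ranged from 0 to 25998 bp. Mirlet7c-2 and Mirlet7b had ranks 4 and 5 among 1228, with 25998 and 25282 bp, and Mir146 rank 11 with 17058 bp. The 3 genes above the pair, Mir3075, Mir6406 and Mir139, had 32, 24 and 11 peaks in the window, where each let-7 hairpin had 4. Mir150 had 7513 bp, Mir142 3537 bp, Mir181a-1 3232 bp, Mir155 2704 bp and Mir17 929 bp. The median of all microRNA genes was 924 bp and the upper quartile 3217 bp. Mir17 was thus close to the median and Mir223 and Mir10a, at 0 bp, were below it. The distance from hairpin to the nearest peak edge gives another order: 0 for Mir142 and Mir155, 0.638 kb for Mir150, 2.09 kb for Mir17, 4.86 kb for Mir146, 10.8 kb for Mir181a-1 and 22.2 kb and 22.9 kb for Mirlet7c-2 and Mirlet7b, beside a median of 23.9 kb for all. The let-7 pair was near the median in distance and near the top in covered length.

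**Figure D4:**
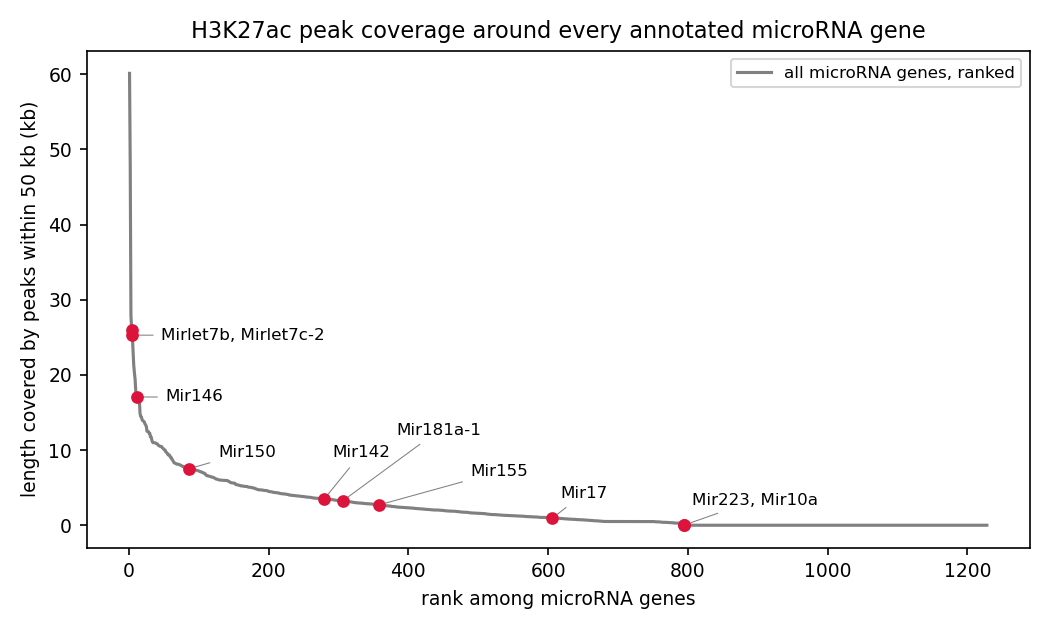
Length in kb covered by H3K27ac peaks within 50 kb of each of the 1228 annotated microRNA genes, ranked (grey line), with the 10 listed genes as red points. The let-7 pair and Mir146 are at the steep left end, Mir17 is near the median, and Mir223 and Mir10a are at 0.

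Other copies of the same families were compared through a list of 21 genes, of which 15 had a peak within 50 kb, at 9 of 13 loci. These shares are near the 64.6% of all microRNA genes and the 68.7% of all 943 microRNA loci joined within 10 kb, so the counts are no result about the families. The miR-181 and miR-17 families had their strongest peak at a copy outside the listed loci. miR-181a-5p is made in the same sequence from Mir181a-1 and Mir181a-2, and the strongest peak was 9.62 at Mir181a-2 and Mir181b-2, against 3.49 at Mir181a-1. Mir181c and Mir181d had 8.97. let-7c-5p is likewise made from Mirlet7c-2 and Mirlet7c-1, and Mirlet7c-1 had no peak in its window, the nearest being 94.6 kb away. Of the other let-7 copies the highest value was 8.79 at Mirlet7i, where a peak overlapped the gene.

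Mir106b, Mir93 and Mir25, a related cluster to Mir17, had a strongest value of 7.16, but that peak was 252 bp from an end of Zfp113. Mir146b had 4.34, against 6.60 at Mir146. The 6 genes of this list without a peak were Mirlet7c-1, Mir10b, Mirlet7f-2, Mir98, Mir106a and Mir20b, the last 4 on X. The list does not hold every gene with a shared seed. Seeds were compared for part of the mature forms of the listed loci, with none of miR-150 among them. In the sequence table, 10 further genes share one of these seeds. Of these, Mir32, Mir367, Mir6383 and Mir92b had a peak within 50 kb, beside 64.6% of all microRNA genes. Mir1961, Mir7k, Mir18b, Mir19b-2, Mir92-2 and Mir363 had none. Of these 6, the last 4 are on X, where 28.3% had one. Mir6383, which had a peak, is also on X. Mir10a and Mir10b, in the HoxB and HoxD clusters, thus both had none. The peaks were not tied to transcription of any copy, since RNA was not analysed here.

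Of 30 other microRNA genes known from blood, 25 had a peak within 50 kb, at 18 of 22 loci, and 12 had a top cluster in the window, beside 64.6% and 4.56% of all microRNA genes. The list was drawn up with results of these data known, so nothing is read from the difference. The highest values were 10.7 at Mir21a, 10.5 at Mir15a and Mir16-1, and 10.3 at Mir23a, Mir27a and Mir24-2, which share a locus. The summit of the peak with 10.7 was 2317 bp from an end of Vmp1. That of the peak with 10.3 was 1179 bp from an end of Mri1, and that with 10.5 was 69088 bp from Kcnrg. Mir196b, in the HoxA cluster, had a peak over the gene and a strongest value of 7.65, at a peak whose summit was 260 bp from an end of Hoxa7. Mir125a and Mir99b shared their single peak with Mirlet7e, and Mir100 shared its peak with Mirlet7a-2. The widest peak near Mir23a, Mir27a and Mir24-2, of 7431 bp, was the strongest near Mir181c and Mir181d. The lists are thus not independent. Among 20 microRNA genes known from other tissues, 6 had a peak, beside the same 64.6%. For microRNA genes outside protein-coding genes the share was 43.4%. This list too was drawn up with results known, so nothing is read from the difference. The 6 genes were Mir9-1 (11.7), Mir124a-3 (9.31), Mir7-2 (5.20), Mir122 (4.07), Mir9-3 (3.58) and Mir203 (2.96). The peak with 11.7 was nearest to Mef2d and that with 9.31 was 427 bp from an end of Ythdf1. The median covered length was 3384.5 bp for the listed genes, 3543 bp for the family list and 3155 bp for the other blood list. It was 0 bp for the genes of other tissues, beside 924 bp for all microRNA genes. All these lists were drawn up with results known, and neighbouring genes share peaks, so nothing is read from these medians.

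**Figure D5:**
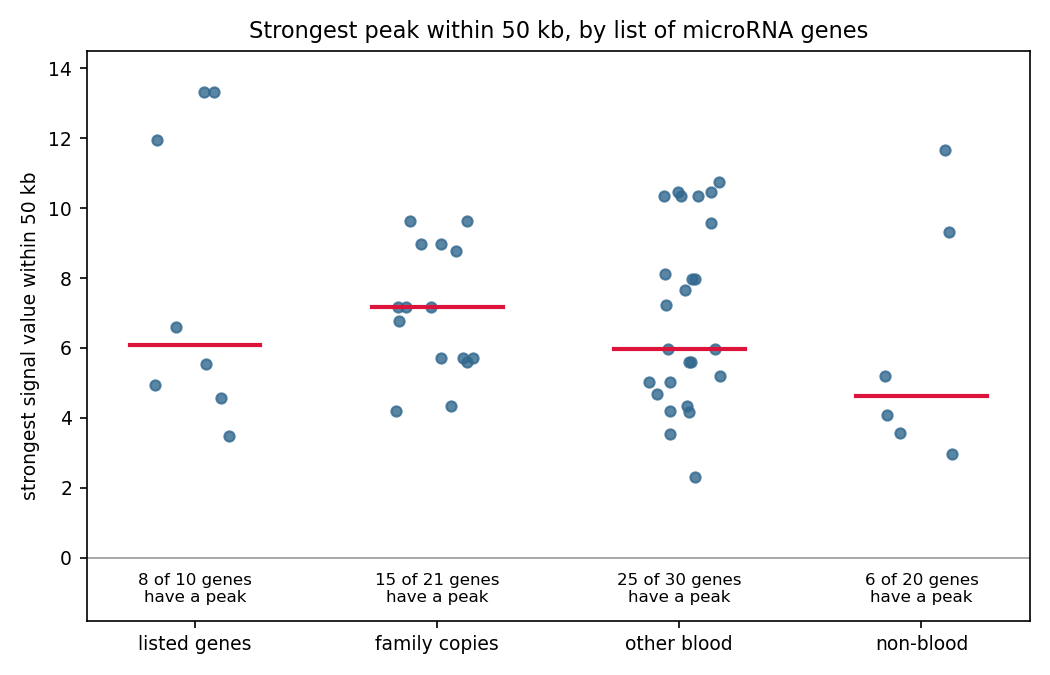
Strongest signal value (the authors' column 7, linear axis) within 50 kb of each microRNA gene with a peak, by list (points, spread sideways at random; red bar, median of those genes), with the number of genes that have a peak under each. Neighbouring genes share peaks, and the listed genes hold the highest value, 13.3 at the let-7 pair.

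Peaks at marker genes of the labelled and of other cell types give the setting. Of all 21887 protein-coding genes, 36.2% had a peak within 1 kb of one of their ends. Of 10 genes of the labelled cells, 5 had one (Kit, Ptprc, Flt3, Meis1 and Hoxa9), while Ly6a (Sca1), Cd34, Hlf, Procr and Mecom had none. The 4 B-cell markers reported all had one (Cd79a, Ebf1, Pax5 and Vpreb1, with signal values from 4.40 to 12.4). The 5 myeloid and 5 T-cell markers had none, and of 5 red cell markers Tfrc had one. The part of these cell types in the peaks at the microRNA loci was not tested. Of all peaks, 21.2% had a q-value above 0.05, and of the 30 at the listed loci 10 did.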

How the data were processed

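The deposited file is 1 list of H3K27ac peaks over input. Per the submitters' processing notes, BWA, MACS2 and mm10 were used, with no role, version or filter given; mm10 is the assembly that RefSeq calls GRCm38. Of the deposited columns, the signal value was taken to be the authors' ratio of H3K27ac pileup to background, beside their peak score and −log10 q-value. Peaks were not given per library. The list is labelled as overlap and optimal peaks, and how these were selected is not given in the sources used here. A listed marker and a neighbouring gene are not reported here. Genes came from the RefSeq table of GRCm38.p6, which gives no strand; strands and sequences of microRNAs came from the RefSeq sequence table. Coordinates are 1-based.

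Windows, gaps, clusters and ranks were computed with Python 3.11.15, pandas 2.3.3 and numpy 2.4.6 and were tested on simulated peaks. Top clusters were those beyond the slope of 1 on the curve of ranked, scaled areas. The genes and lists were chosen with earlier results of these data known, so no test was made. All listed genes and hosts, family copies without a peak, other-tissue genes with one, and the 5 highest of the other lists (ties included) were to be named; Mir146b, Mir106b, Mir93, Mir25, Mir196b, Mir3075, Mir6406, Mir139, the further seed copies and the shared loci were named after their values were seen. Alternatives were other peak thresholds, windows, join distances and backgrounds.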

Additional observations from a re-analysis of the deposited data

How the results depend on the processing

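Of 53 recomputed summary values, 40 stayed within a factor of 1.5 or within the interval of a share, and 13 moved. The cause of each move is the construction of the alternative, which drops or adds peaks or sequence or counts other units (joined loci, or all genes). The 30 peaks at the listed loci became 16 under a −log10 q minimum of 5, 15 under a signal minimum of 4, 12 with a window of 10 kb and 19 with 25 kb. The number of loci with a peak ranged from 5 to 7. Mir181a-1 had none under both stricter lists, and with 10 kb neither it nor the let-7 pair had one. The let-7 cluster spanned 30804 bp with a join distance of 5 kb, and its rank ranged from 4 to 14, the last when ordered by summed length. The strongest value at Mir181a-1 was 5.69 with 100 kb, and the Mir146 cluster spanned 48421 bp with a join distance of 20 kb. The share of microRNA genes with a peak was 43.8% under the −log10 q minimum, 56.9% under a q-value maximum of 0.05, 42.9% under the signal minimum, 31.4% with 10 kb, 51.1% with 25 kb, 76.6% with 100 kb, 68.7% over loci joined within 10 kb and 55.6% over all genes. The let-7 pair and Mir146 had a top cluster in each of the 6 cluster settings tried. Counting from the hairpin alone and distal peaks alone were chosen after seeing the data. Leaving out single libraries was not possible, and the depth, which is unknown, limits how firmly the weakest peaks are placed. No paired analysis was possible because no column holds a single replicate.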
